A study of Mus musculus with 16 samples.

Results

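The interaction of a DLK inhibitor with nocodazole was read from all 16 samples of the series (16 of 16), gene by gene. It is the log2 change with nocodazole in the presence of the inhibitor minus the log2 change with nocodazole in its absence. The samples were dorsal root ganglion neurons of CD1 mouse embryos, cultured for 6 days. All had nerve growth factor in the medium, and fluorodeoxyuridine plus uridine to hold down dividing cells. In the 4 groups of 4 samples, GNE3511 (500 nM, an inhibitor of DLK) or DMSO was given for 15 min, and nocodazole (200 nM) or DMSO was then added for 16 h. The groups are called DMSO, nocodazole, inhibitor, and inhibitor plus nocodazole. A single inhibitor at a single dose was used, so an action on DLK and an action of GNE3511 on another target cannot be told apart. The replicates are not said to come from separate cultures or animals, so each p-value measures only how far these samples spread, and that spread may be technical.

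Dual leucine zipper kinase, the product of Map3k12, is a MAP kinase kinase kinase of neurons that acts through MKK4, MKK7 and JNK on the transcription factor c-Jun. In sensory neurons it is known for carrying the signal of axon or cytoskeletal damage to the nucleus, where it switches on both regeneration genes and death genes, and it also feeds the integrated stress response. Nocodazole binds tubulin and takes microtubules apart, which raises the pool of free tubulin, and free tubulin is known to speed the decay of tubulin mRNAs.

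Total counts ran from 30987962 to 43321421 per library. The neuron label fitted the markers: the 18 neuronal marker genes summed to between 16000 and 21700 CPM (counts scaled to library size) in every library, against 104 to 219 CPM for 16 glial markers, 45.7 to 110 for 15 fibroblast markers and 1.92 to 5.92 for 12 macrophage markers. Thy1 is on both the neuronal and the fibroblast list, and its group means of 41 to 56.8 CPM made up most of the fibroblast sum. Summed macrophage markers were 2.52 to 2.99 CPM in DMSO and 4.40 to 5.92 with nocodazole. They were 1.92 to 3.10 with the inhibitor and 2.06 to 3.29 with both. Cd68, also a general lysosomal gene, made up most of the rise with nocodazole (mean 0.428 to 2.16 CPM). Csf1r (0.69 to 1.07) and Aif1 (1.08 to 1.28) were higher too, as were Cx3cr1, Adgre1, Trem2 and Tyrobp, all near 0. C1qa, C1qb, C1qc, Itgam and Ptprc were lower. Summed glial markers were 192 to 219, 118 to 169, 116 to 186 and 104 to 168 CPM in the same order. Mbp, S100b and Cnp were lower with nocodazole than in DMSO, and Erbb3 and Apoe higher. The part of these markers in the results was not tested. In bulk RNA, fewer cells of a type and less RNA per cell cannot be told apart. Replicate 1 of the inhibitor plus nocodazole group stood apart. On the first principal component (38.2% of the variance) it lay at 10.4, its 3 fellow replicates at -31.4 to -28.4, and the nocodazole libraries at 59.5 to 69.7. Results are therefore given with and without that library. A second feature of the labels touches every result: sample numbers of 15 or above occur only in DMSO replicates 2, 3 and 4 and in inhibitor plus nocodazole replicates 3 and 4. What the numbers stand for is not stated, so an order of handling cannot be told apart from part of the group differences.

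Few nocodazole changes were called when the inhibitor was present. In the absence of the inhibitor nocodazole changed 7187 of 19156 tested genes at an edgeR quasi-likelihood adjusted p below 0.05 (37.5%), with 3556 higher (18.6%) and 3631 lower (19%). With the inhibitor only 16 genes passed the same test (0.0835%), 15 higher (0.0783%) and 1 lower (0.00522%), and 1146 had an unadjusted p below 0.05. With no change in any gene, a share near 0.05 of the 19156 tests would also have an unadjusted p below 0.05. DESeq2 called 125 genes with the inhibitor. The interaction itself was called for 3587 genes (18.7%), of which 1763 were lower (9.2%) and 1824 higher (9.52%). Without inhibitor plus nocodazole replicate 1 the interaction calls were 2478 lower (12.7% of 19479 genes) and 2740 higher (14.1%), and 88 genes (0.452%) were called for nocodazole with the inhibitor. With a term for sample numbers of 15 or above, chosen after seeing the data, the calls fell to 267 lower and 285 higher, and to 651 and 717 when replicate 1 was also left out. No gene was called for that term itself by edgeR (1150 at an unadjusted p below 0.05, beside the same share near 0.05 with no change). Of the 70 genes named below with a called interaction, 34 were still called with the term and 56 with the term and without replicate 1, all with the same sign. The 14 not called in that last fit were Jun, Fos, Myc, Map3k12, Tnik, Dusp7, Dusp8, Chac1, Stmn4, Xbp1, Myo16, Nfe2l1, Stard4 and Malat1.

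Genes were sorted by their calls. A response was called lost when nocodazole changed the gene without the inhibitor, the interaction had the opposite sign and was called, and no change was called with the inhibitor. This held for 3452 genes, 48% of the 7187 responders: 1707 rises (8.91% of tested genes) and 1745 falls (9.11%). A missing call with the inhibitor is not evidence of no change. The confidence interval of the change with the inhibitor lay under 0.5 of the change without it in 1347 rises (78.9%) and 1486 falls (85.2%). For the remaining lost genes these data do not exclude that 0.5 or more of the response persisted. The interaction contains the change without the inhibitor with its sign turned, so errors in that change enter both, and their opposite signs are partly built in. Over the lost rises the median log2 change was 0.90 without the inhibitor and 0.01 with it, and over the lost falls it was -0.57 and -0.0063, where the median of all tested genes was 0.0072 and 7.9e-06. Without replicate 1, lost responses numbered 4831 (62.2% of 7770 responders). Of the first set, 1658 rises and 1702 falls were lost in both fits.

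Few responses could be called kept, and most of the others were not resolved. Another 3723 responders (51.8%) had neither a called interaction nor a called change with the inhibitor, so these data do not say whether their response persisted. Their median change was 0.58 and 0.09 for the 1838 rises, without and with the inhibitor, and -0.35 and -0.05 for the 1885 falls. Responses kept in both settings with no called interaction numbered 8, and 4 were reduced but still called. None of the 8 had a 95% interval of the interaction within 0.5 of its change without the inhibitor. Gained responses, called only with the inhibitor and with a called interaction, numbered 3. A further 128 genes had a called interaction alone (76 higher, 52 lower). These small classes moved with the library left out. Kept rises ranged from 3 to 16, reduced rises from 0 to 5 and gained rises from 0 to 43. All were highest without inhibitor plus nocodazole replicate 1, where 1 gained fall was called as well. Calls with the inhibitor lay between 3 and 10 without any one of the other libraries, apart from 20 without nocodazole replicate 3.

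**Figure D1:**
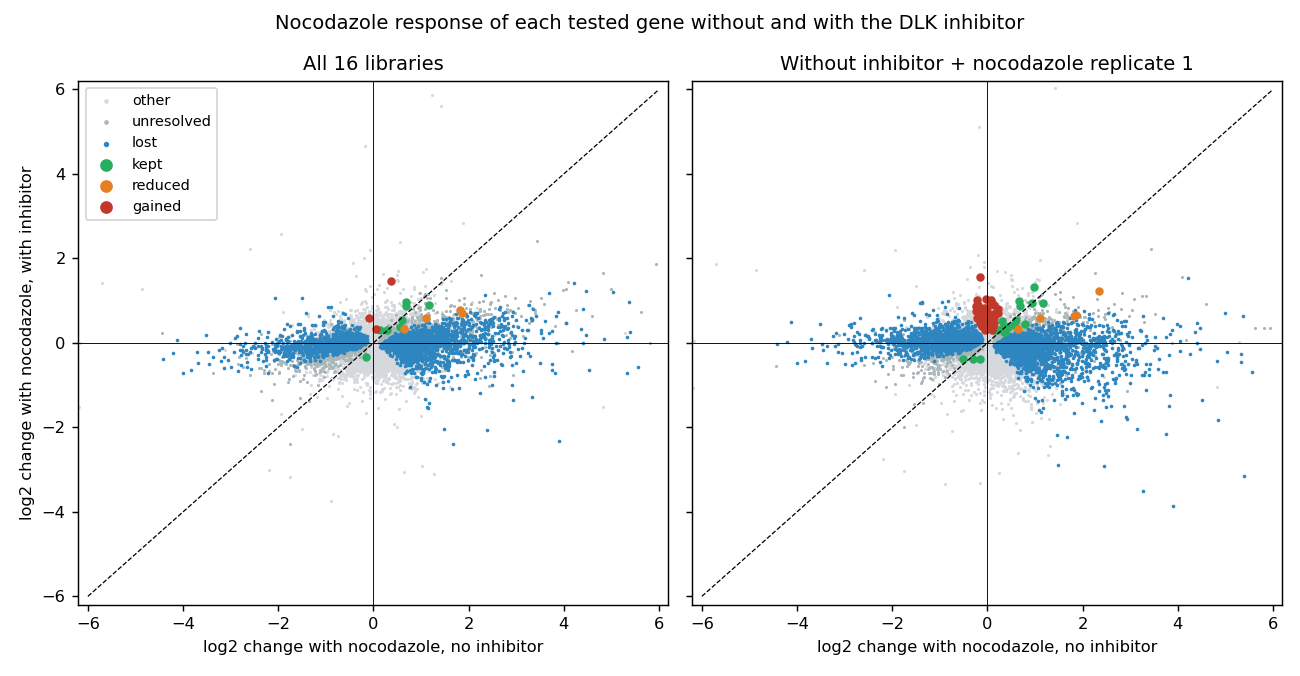
Log2 change with nocodazole of each tested gene with the inhibitor (vertical axis) against that without it (horizontal axis), in all 16 libraries and without inhibitor plus nocodazole replicate 1. Lost genes (blue) lie mostly near the horizontal line at 0 and off the dashed line of equal change, largely by definition of the class. The 43 gained rises of the right panel (red) lie above 0, likewise by definition. On the left panel 12 genes and on the right 15 lie outside the axes, and reversed or strengthened genes are drawn as other.

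The library that stood apart shared part of the nocodazole pattern. Over the 1231 genes that nocodazole raised at least 2-fold, the median log2 change of inhibitor plus nocodazole replicate 1 against the inhibitor mean was 0.46, and that of replicates 2 to 4 was -0.05 to 0.03. Over the 702 genes lowered at least 2-fold it was -0.65, against -0.04 to 0.09. The nocodazole libraries had medians of 1.41 to 1.56 and -1.58 to -1.19 in the same sets, against the DMSO mean. The sets were chosen on the nocodazole libraries, so their own medians are a description. The source of the difference between the replicates was not tested. Its mitochondrial share of counts was 1.71%, above the 0.865% to 1.09% of its fellow replicates and below only the 1.78% of inhibitor replicate 3 among the 16 libraries.

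**Figure D2:**
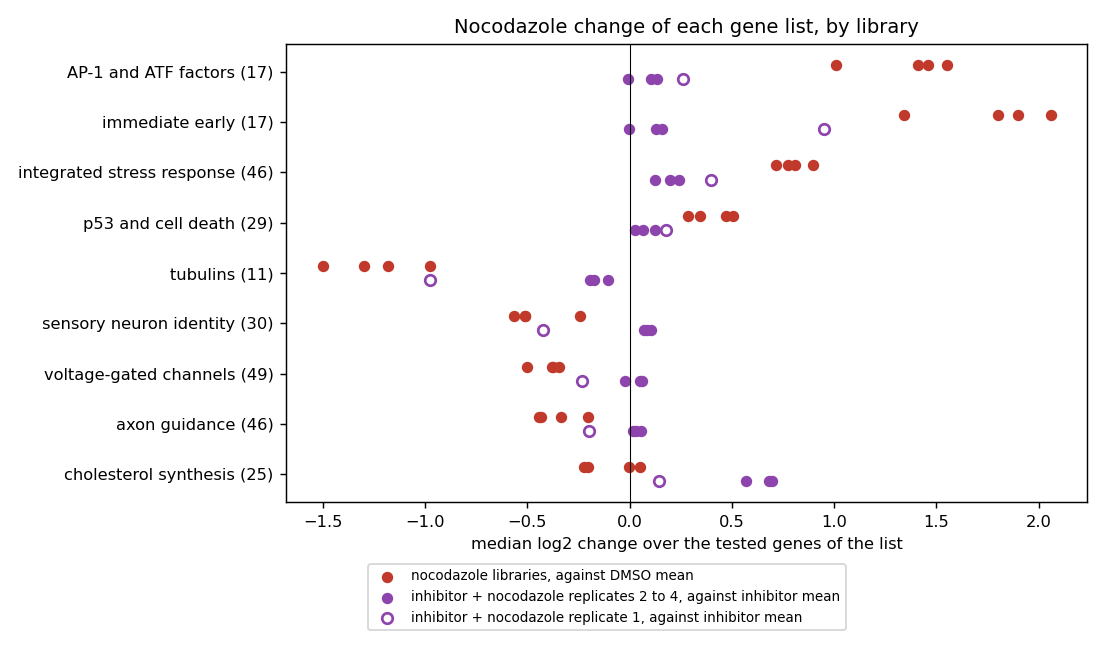
Median log2 change with nocodazole over the tested genes of each list (number of genes in brackets), one point per library, against the mean of the matching group without nocodazole. Filled points of inhibitor plus nocodazole replicates 2 to 4 lie between -0.20 and 0.24 for the lists drawn. Cholesterol synthesis, at 0.57 to 0.70, is the exception. The open point of replicate 1 lies next to the nocodazole libraries for tubulins (-0.975) and axon guidance (-0.199). For sensory neuron identity (-0.424) it lies among them.

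AP-1 and ATF transcription factors are the nuclear end of the DLK and JNK pathway. Of 17 tested members of this family 11 rose with nocodazole alone, and 9 of these were lost, each with a called lower interaction, where none was higher. Over all tested genes 9.2% had a lower and 9.52% a higher interaction, the background of this list and of those below. Among the 7187 responders 48% were lost, so a list rich in responders can exceed the shares of all tested genes by that alone. The rises of Junb and Jdp2 were unresolved: Jdp2, a repressor that pairs with Jun, changed by 0.48 without (called) and 0.44 with the inhibitor, with an interaction of -0.04. The median log2 change was 1.37 without the inhibitor and 0.05 with it, and the median interaction was -1.45, against -0.0035 over all tested genes. Without replicate 1, 10 members were called. With the sample-number term 5 were called, and 7 when replicate 1 was also left out. Jund, Fosb, Atf2, Atf7, Maf and Bach2 had no call for any nocodazole contrast or the interaction.

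Atf3, a stress-induced transcription factor and the usual marker of injured sensory neurons, stood at 2.36, 1.52, 8.48 and 4.65 CPM in the DMSO libraries (replicates 1 to 4, in that order here and below) and at 184, 162, 216 and 163 with nocodazole. With the inhibitor it stood at 1.13, 2.35, 2.41 and 1.47 CPM, and with both at 5.60, 2.60, 3.13 and 2.71. Every nocodazole library was far above all 12 others. The inhibitor plus nocodazole libraries lay within the range of the DMSO libraries, but each was above every library with the inhibitor alone. The log2 change was 5.38 ± 0.39 (SE) without and 0.97 ± 0.44 with the inhibitor, and the interaction was -4.41 ± 0.58 (edgeR adjusted p = 0.00012), or -4.74 without replicate 1.

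Jun, which encodes the JNK substrate itself, was also lower with the inhibitor in the absence of nocodazole. It was at 38.9, 56.5, 94.2 and 91.6 CPM in DMSO, 194, 181, 293 and 223 with nocodazole, 1.96, 0.843, 1.5 and 21.1 with the inhibitor, and 0.841, 1.38, 1.40 and 1.44 with both. The inhibitor groups did not overlap with the others, and inhibitor replicate 4 lay far above the other inhibitor libraries. Its interaction of -4.05 ± 1.0 (edgeR adjusted p = 0.010) fell to -1.87 without that 1 library, and the inhibitor lowered Jun by 3.43 ± 0.65 in the absence of nocodazole (edgeR adjusted p = 0.0032). Jund, a close relative with steady expression, was lower with the inhibitor too: it was 228 to 336 CPM in DMSO, 292 to 368 with nocodazole, 49.2 to 119 with the inhibitor and 44.6 to 72.0 with both. Its inhibitor change was -2.0 ± 0.23 (edgeR adjusted p = 0.00013) and its interaction -0.47 ± 0.32 (edgeR adjusted p = 0.32).

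Fosl2, Mafk and Fos lost their rises and had no called inhibitor change in the absence of nocodazole. Fosl2, a Fos-family partner, was 5.47 to 8.11 CPM in DMSO, 52.6 to 69.5 with nocodazole, 4.71 to 6.70 with the inhibitor and 6.14 to 11.6 with both, so that the nocodazole group overlapped with no other. The interaction was -2.67 ± 0.25 (edgeR adjusted p = 7.6e-06). Mafk, a small Maf protein, had an interaction of -1.45 ± 0.21 (edgeR adjusted p = 0.00025). Fos, an immediate early gene, was at or below 0.408 CPM in all libraries but the nocodazole group (2.67 to 5.82). Its interaction was -3.24 ± 0.89 (edgeR adjusted p = 0.019), with an adjusted p of 0.096 without inhibitor replicate 3.

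Immediate early genes as a list gave 10 lower interactions and 1 higher among 17 tested, with a median interaction of -1.54. The 1 higher interaction of that list was not above the 9.52% of all tested genes. Egr1, a zinc-finger factor of that list, had the lowest interaction of the lost rises named here with all 16 libraries (Snx33 was lower without inhibitor plus nocodazole replicate 1, at -6.65 against -6.24). It was at 0.280, 1.26, 2.00 and 1.64 CPM in DMSO, 53.5, 59.8, 78.0 and 59.2 with nocodazole, 0.248 to 0.501 with the inhibitor and 0.094 to 0.339 with both. The log2 change of 5.56 ± 0.31 became -0.57 ± 0.59, an interaction of -6.13 ± 0.70 (edgeR adjusted p = 3.5e-05). Sox11, a developmental factor that returns in regenerating neurons, rose from 109 to 136 CPM in DMSO to 332 to 402 with nocodazole, and was 126 to 179 with the inhibitor and 121 to 207 with both. Its interaction was -1.55 ± 0.21 (edgeR adjusted p = 0.00013), and the 207 was replicate 1. Myc went the other way in the same list of injury factors (16 tested, 10 lower and 2 higher interactions, the other higher one being Klf6): its fall of 0.88 was lost, with an interaction of 0.96 ± 0.18 (edgeR adjusted p = 0.0020).

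Among 24 tested genes of the kinase pathway above Jun, 3 rose and 8 fell with nocodazole alone. The interaction was higher in 4 and lower in 2, beside 9.52% and 9.2% of all tested genes, so the lower count is near that background. Map3k12, which encodes DLK, was 115 to 131 CPM in DMSO, 90.4 to 103 with nocodazole, 118 to 127 with the inhibitor and 105 to 127 with both. Its interaction of 0.31 ± 0.09 (edgeR adjusted p = 0.028) was no longer called without nocodazole replicate 1, DMSO replicate 3 or 4, inhibitor replicate 2 or 3, or inhibitor plus nocodazole replicate 4. Tnik and Map4k4, kinases that act above DLK, had small rises (0.40 and 0.27) that were lost, with interactions of -0.40 ± 0.09 and -0.29 ± 0.06 (edgeR adjusted p = 0.0052 and 0.0042).

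Dual-specificity phosphatases, which switch MAP kinases off, gave 4 lower interactions and 1 higher among 13 tested. The 1 higher was not above the 9.52% of all tested genes. Dusp1 stood at 8.34, 10.5, 15.3 and 13.1 CPM in DMSO and at 103, 78.5, 118 and 89.0 with nocodazole, but at 0.639 to 3.47 with the inhibitor and 0.877 to 2.14 with both. Both inhibitor groups lay below every DMSO library. Its interaction was -3.17 ± 0.50 (edgeR adjusted p = 0.00047). Dusp16, a JNK phosphatase, followed the same order (mean 9.87, 27.4, 2.50 and 1.82 CPM; interaction -1.92 ± 0.32, edgeR adjusted p = 0.00085). Dusp8, another JNK phosphatase, rose by only 0.28, and its interaction of -0.48 ± 0.15 (edgeR adjusted p = 0.033) was not called without DMSO replicate 1 or 2, nocodazole replicate 1 or 3, inhibitor replicate 4, or inhibitor plus nocodazole replicate 2 or 3. Dusp4 had an interaction of -2.77 ± 0.99 (edgeR adjusted p = 0.062). Replicate 1 with both drugs held 7.93 CPM of it, its fellows 0.783 to 1.19, and without replicate 1 the interaction was -4.23 (edgeR adjusted p = 0.0010). Dusp7, an ERK phosphatase, was the 1 higher, with a lost fall (interaction 1.00 ± 0.17, edgeR adjusted p = 0.00070).

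**Figure D3:**
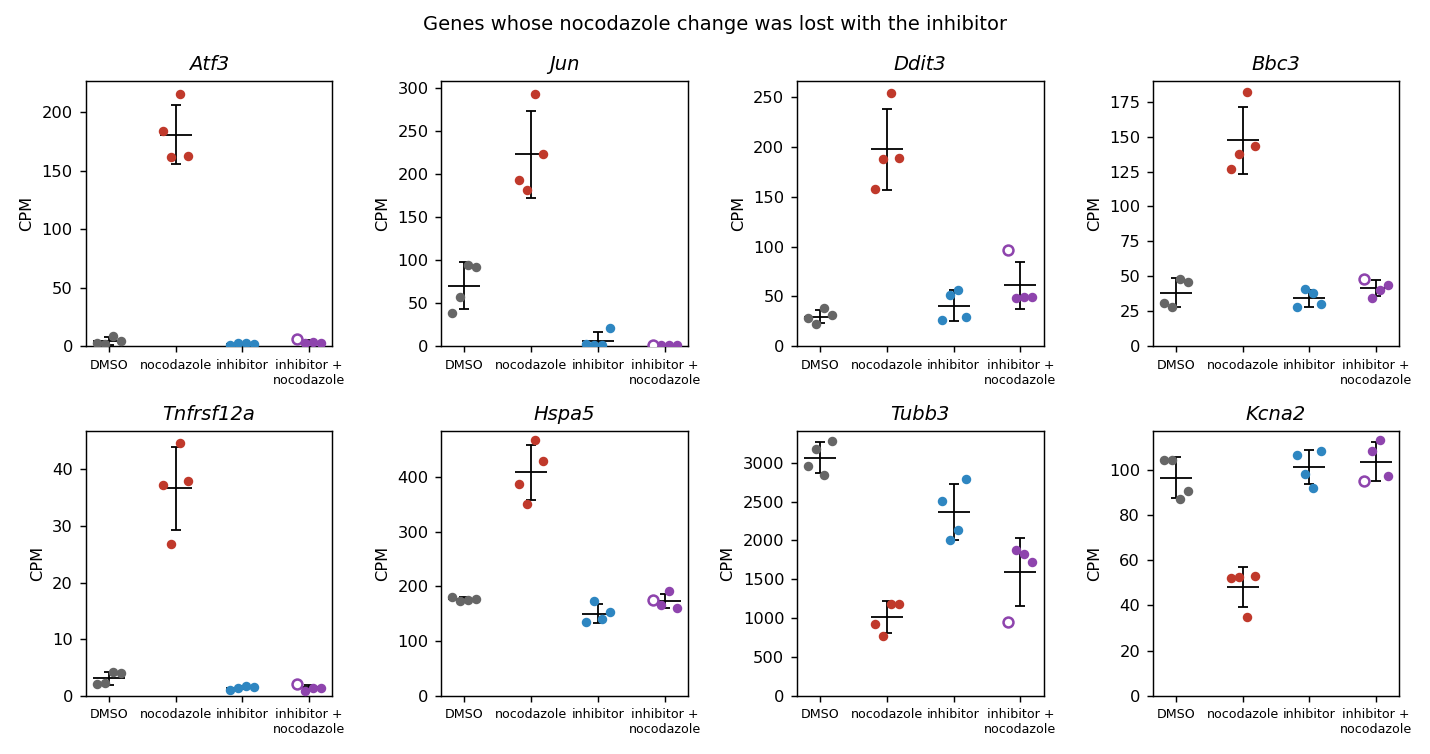
CPM per library of 8 genes whose nocodazole change was lost with the inhibitor, by group; points are the 4 replicates, bars the mean and SD, and the open point is inhibitor plus nocodazole replicate 1. In Tubb3 and Ddit3 the open point (945 and 96.3 CPM) lies apart from its group, and in Jun both inhibitor groups lie near 0.

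Integrated stress response genes, switched on by ATF4 when translation initiation is held back, rose almost as a block with nocodazole and lost much of that rise. Of 46 tested genes 45 rose without the inhibitor and none passed with it. The interaction was lower in 32 and higher in none, with 36 lower when replicate 1 was left out. Median log2 changes were 0.79 without and 0.24 with the inhibitor, so the list retained a positive median where lost rises as a class had 0.01, and the median interaction was -0.57. Libraries with both drugs had list medians of 0.40 (replicate 1) and 0.12 to 0.24, the nocodazole libraries 0.72 to 0.90. The 32 became 8 with the sample-number term and 13 with that term and without replicate 1, while the median interaction was -0.55 and -0.70.

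Ddit3, which encodes the pro-death factor CHOP, was at 27.8, 21.7, 38.4 and 30.7 CPM in DMSO, 158, 188, 255 and 189 with nocodazole, 26.1, 51.1, 56.4 and 29.2 with the inhibitor, and 96.3, 48.5, 49.1 and 49.8 with both. The nocodazole libraries were above all others, and replicate 1 with both drugs lay between the groups. Its interaction was -2.15 ± 0.38 (edgeR adjusted p = 0.0012), or -2.46 without replicate 1. Sesn2, a stress-induced inhibitor of mTORC1, rose by 1.98 ± 0.17 without and 0.55 ± 0.16 with the inhibitor (interaction -1.44 ± 0.23, edgeR adjusted p = 0.00060). Trib3, a pseudokinase target of CHOP, and Stc2, a secreted glycoprotein, had interactions of -1.28 ± 0.27 and -2.19 ± 0.54 (edgeR adjusted p = 0.0041 and 0.011). Ppp1r15a, which encodes the phosphatase subunit GADD34 that ends the response, was 218 to 256 CPM with nocodazole and 116, 43.2, 51.0 and 44.4 with both. That gave an interaction of -2.21 ± 0.44 (edgeR adjusted p = 0.0029).

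The head of the response was not resolved. Atf4 mRNA stood at 201 to 262 CPM in DMSO, 329 to 440 with nocodazole, 275 to 294 with the inhibitor and 347 to 414 with both. All 4 libraries with both drugs were above all 4 with the inhibitor alone and overlapped with the nocodazole group. The changes were 0.67 ± 0.09 without the inhibitor (edgeR adjusted p = 2.6e-05) and 0.41 ± 0.09 with it (edgeR adjusted p = 0.13), and the interaction was -0.27 ± 0.13 (edgeR adjusted p = 0.15). Asns, asparagine synthetase, rose by only 0.27 and its interaction of -0.15 ± 0.11 was not called (edgeR adjusted p = 0.34).

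As the members of this list moved together, their RefSeq promoters (GRCm38.p6, 250 bases before to 50 after the start) were searched on both strands for the C/EBP-ATF element TGATGCAA, which ATF4 dimers bind. Of 46 genes 37 had an entry, and 10 of these (27%) held the element, against 0.929% of all 27025 promoters of that table and 0.602% of the 11787 tested genes with an entry. The 10 were Aars, Atf3, Chac1, Herpud1, Iars, Nupr1, Slc7a11 and Tars, with a lost rise, and Fgf21 and Yars, whose rise was unresolved. A match is a description of letters and not a bound site. The list was drawn up as genes switched on by ATF4, so a high share of its element is partly built in. Why the members moved together was not tested. The 250 bases before the start of Atf3 (minus strand, chr1:191183334-191183583) and of Chac1 (plus strand, chr2:119350992-119351241) show it. Capitals mark the element as read on the opposite strand, 110 bases before the start of Atf3 and 193 before that of Chac1.
Atf3: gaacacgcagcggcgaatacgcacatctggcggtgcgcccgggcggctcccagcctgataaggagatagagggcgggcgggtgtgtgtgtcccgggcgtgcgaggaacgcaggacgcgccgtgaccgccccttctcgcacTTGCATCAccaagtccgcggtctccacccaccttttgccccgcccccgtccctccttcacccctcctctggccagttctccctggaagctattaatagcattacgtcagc
Chac1: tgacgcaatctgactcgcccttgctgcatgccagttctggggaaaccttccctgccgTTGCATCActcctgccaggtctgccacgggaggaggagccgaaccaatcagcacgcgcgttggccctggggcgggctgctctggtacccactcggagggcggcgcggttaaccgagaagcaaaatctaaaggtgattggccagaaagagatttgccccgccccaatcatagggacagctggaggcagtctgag
Chac1, a glutathione-degrading enzyme, was at 43.6, 32.7, 63.9 and 55.5 CPM in DMSO, 121, 126, 170 and 121 with nocodazole, 65.0, 82.8, 89.4 and 66.8 with the inhibitor and 127, 100, 99.6 and 121 with both. The group with both drugs lay above the inhibitor group and overlapped with the nocodazole group. Its change was 1.46 ± 0.18 without and 0.56 ± 0.17 with the inhibitor (interaction -0.90 ± 0.24, edgeR adjusted p = 0.018).

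Of 24 tested sensors and chaperones of the endoplasmic reticulum, 7 had a lower interaction and 3 a higher one, the latter near the 9.52% of all tested genes. Hspa5, which encodes the chaperone BiP, was 174 to 181 CPM in DMSO, 351 to 467 with nocodazole, 134 to 173 with the inhibitor and 160 to 191 with both. Its interaction was -1.0 ± 0.12 (edgeR adjusted p = 7.3e-05). Dnajb9, a co-chaperone of BiP, and Eif2ak3, the sensor kinase PERK, had interactions of -1.59 ± 0.11 and -1.14 ± 0.12 (edgeR adjusted p = 2.9e-07 and 2.1e-05). The chaperones Manf, Pdia4 and Creld2 were the 3 higher, each with a lost fall. Xbp1, a transcription factor of this response, was classed as reduced with all 16 libraries, but no rise was reduced without DMSO replicate 1. Its values were 40.7 to 44.7, 62.2 to 68.7, 35.1 to 41.6 and 46.6 to 51.6 CPM, in the order DMSO, nocodazole, inhibitor and both. They do not overlap between the groups with and without nocodazole. The change was 0.64 ± 0.06 without and 0.33 ± 0.06 with the inhibitor (edgeR adjusted p = 0.047), with an interaction of -0.31 ± 0.08 (edgeR adjusted p = 0.017). Hmox1, the heme oxygenase, rose by 2.72 ± 0.20 without and by 0.71 ± 0.19 (not called) with the inhibitor (interaction -2.01 ± 0.27, edgeR adjusted p = 0.00014).

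Genes of p53 and cell death lost rises in 9 of 29 tested, with 1 higher interaction (Casp9) and a median interaction of -0.31. Over all tested genes 8.91% were lost rises and 9.52% had a higher interaction, so the 1 higher was not above that background. Of the 18 members that rose with nocodazole alone 9 were lost, near the 48% of all responders. With the sample-number term 4 lower interactions were called, and 6 when replicate 1 was also left out. Bbc3, which encodes the pro-apoptotic protein PUMA, was 28.2 to 48.1 CPM in DMSO, 127 to 182 with nocodazole, 28 to 41.1 with the inhibitor and 34.4 to 47.8 with both. Only the nocodazole group stood apart (interaction -1.67 ± 0.25, edgeR adjusted p = 0.00028). Mdm2, the ubiquitin ligase of p53, had the same order with little spread: 26.8 to 29.9, 64.3 to 81.9, 25.3 to 29.4 and 28.1 to 30.7 CPM (interaction -1.27 ± 0.10, edgeR adjusted p = 1.5e-06). Gadd45a, a growth arrest gene, had an interaction of -2.04 ± 0.35 (edgeR adjusted p = 0.00093), with replicate 1 at 61.0 CPM and its fellows at 32.5 to 33.3.

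Regeneration genes showed 8 lower interactions and none higher among 21 tested, with a median of -0.57. Tnfrsf12a, the TWEAK receptor, was at 2.02, 2.17, 4.17 and 4.00 CPM in DMSO, 37.2, 26.8, 44.6 and 38.0 with nocodazole, 1.05 to 1.66 with the inhibitor and 0.908 to 2.09 with both (interaction -3.45 ± 0.38, edgeR adjusted p = 2.7e-05). Stmn4, a stathmin that binds tubulin dimers, fell by 2.11 ± 0.27 with the inhibitor in the absence of nocodazole, and its rise of 1.18 was lost. Its interaction was -1.57 ± 0.37 (edgeR adjusted p = 0.0085), or -1.05 without inhibitor replicate 4, which held 50.2 CPM against 16.5 to 20.8 in its fellows. Gap43, the growth cone protein, had no called nocodazole change and an interaction of 0.18 ± 0.15 (edgeR adjusted p = 0.44). Sprr1a, another gene of injured neurons, did not pass the low-count filter.

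By the size of the interaction, the 12 lost rises that the naming rule took were Egr1, Snx33 (-4.75), Atf3, Jun, Tnfrsf12a, Aloxe3 (-3.24), Arid5a (-3.21), Lhfpl2 (-3.21), Dusp1, Bcl6 (-2.90), Dok7 (-2.85) and Fam167a (-2.80). Snx33, a sorting nexin, was 9.33 to 14.2 CPM with nocodazole and 1.03, 0.125, 0.0931 and 0.0565 with both drugs, and its interaction without replicate 1 was -6.65. Values this near 0 leave its size and rank uncertain, and it was -3.83 without inhibitor replicate 3 (edgeR adjusted p = 0.038). Arid5a, an RNA-binding regulator of mRNA stability, was 46.2 to 89.0 CPM with nocodazole and 9.51, 3.63, 4.53 and 4.21 with both. In both genes replicate 1 was the highest of its group and still below every nocodazole library.

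The 12 lost falls that the naming rule took (at least 10 CPM in a group and lost in both fits) were Adamts15 (3.97), Grhl3 (3.04), Oprk1 (2.81), Rhpn2 (2.70), A4galt (2.67), Prag1 (2.64), Fzd7 (2.53), Mob3b (2.53), Kcnj3 (2.44), Scml4 (2.42), Htr1b (2.40) and Lrfn2 (2.36). Adamts15, a secreted protease, stood at 23.8, 24.1, 23.9 and 29.7 CPM in DMSO, 0.524, 0.778, 1.63 and 2.63 with nocodazole, 32.0, 10.8, 23.1 and 26.9 with the inhibitor and 8.29, 25.4, 23.5 and 22 with both. Replicate 1 with both drugs lay between the groups, the other 3 within the DMSO and inhibitor range. Its interaction had a SE of 0.57 (edgeR adjusted p = 0.00023) and was 4.24 without replicate 1. Kcnj3, a G-protein-gated potassium channel subunit, and Htr1b, a serotonin receptor, showed the same order, at 3.96 and 20.4 CPM in replicate 1 and 16.4 to 18.9 and 55.7 to 64.5 in its fellows. Rhpn2, a scaffold protein, had no low replicate 1: its 12.2, 12.5, 12.8 and 14.6 CPM with both drugs were above the 1.37 to 1.63 CPM of the nocodazole group.

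Tubulin genes fell together with nocodazole and largely stayed up with the inhibitor in 3 of 4 libraries. All 11 tested tubulin genes fell without the inhibitor, none was called with it, and 9 had a called higher interaction (Tubb2b and Tubb6 did not), or all 11 without replicate 1. The median change was -1.17 without and -0.32 with the inhibitor, and the median interaction was 0.85, or 1.03 without replicate 1. By library, the list median was -0.975 in replicate 1 with both drugs, next to the -1.5 to -0.977 of the nocodazole libraries, and -0.20 to -0.11 in replicates 2 to 4. None was called with the sample-number term in all libraries, and 9 were with that term and without replicate 1. Tubulin genes are close paralogs, and how the counting split shared reads is not given.

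Tubb3, the neuronal beta-tubulin, stood at 2955, 3175, 2844 and 3287 CPM in DMSO, 930, 766, 1184 and 1176 with nocodazole, 2514, 2005, 2137 and 2795 with the inhibitor, and 945, 1876, 1819 and 1724 with both. Replicate 1 with both drugs lay within the nocodazole range, and its 3 fellows lay between that range and the inhibitor group. The fall of 1.60 ± 0.19 without the inhibitor met a change of -0.57 ± 0.18 with it (not called, edgeR adjusted p = 0.46), an interaction of 1.02 ± 0.26 (edgeR adjusted p = 0.012), or 1.21 without replicate 1. Tuba1a, the main alpha-tubulin of neurons, was 2458 to 3685 CPM with nocodazole and 2831, 5714, 5694 and 5149 with both (interaction 0.90 ± 0.25, edgeR adjusted p = 0.018). Tuba1b and Tubb5 had interactions of 1.06 ± 0.19 and 0.79 ± 0.17 (edgeR adjusted p = 0.0015 and 0.0043). Tubb2b and Tubb6 had 0.50 ± 0.23 and 0.60 ± 0.25 (edgeR adjusted p = 0.14 and 0.11), or 0.66 and 0.78 without replicate 1, both then called.

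Genes of excitability and sensory identity lost falls, less clearly in replicate 1 with both drugs. Of 49 voltage-gated channel genes 33 fell and 4 rose with nocodazole, and 20 had a higher and 3 a lower interaction (Cacna1e, Hcn4 and Kcnq3), with a median of 0.36. Over all tested genes 9.52% were higher and 9.2% lower, so the 3 lower were not above that background. With the sample-number term 5 of the higher ones were called, and 12 when replicate 1 was also left out. By library, the list median was -0.23 in replicate 1 with both drugs and -0.02 to 0.06 in replicates 2 to 4. The nocodazole libraries had -0.50 to -0.35. Kcna2, a potassium channel of axons, was 87.1 to 105 CPM in DMSO, 34.8 to 53.1 with nocodazole, 91.9 to 108 with the inhibitor and 95.3 to 114 with both, so only the nocodazole group stood apart. Its interaction was 1.04 ± 0.16 (edgeR adjusted p = 0.00042). Scn10a, the nociceptor sodium channel Nav1.8, did not follow: it was 1589 to 1743, 1401 to 1532, 1221 to 1386 and 1030 to 1190 CPM, lower at each step in the order DMSO, nocodazole, inhibitor and both. The interaction was -0.02 ± 0.09 (95% interval -0.20 to 0.16).

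Among 30 sensory identity genes 9 had a higher interaction and none a lower, with a median of 0.51. These were 9 lost falls among 16 called falls, not far from the 48% of all responders. By library, the list median was -0.42 in replicate 1 with both drugs, within the -0.56 to -0.24 of the nocodazole libraries. It was 0.07 to 0.10 in replicates 2 to 4. Prdm12, a regulator of nociceptor fate, was 746 to 814 CPM in DMSO, 387 to 543 with nocodazole, 766 to 862 with the inhibitor and 800 to 936 with both (interaction 0.91 ± 0.12, edgeR adjusted p = 0.00014). Oprk1, the kappa opioid receptor, was at 16.4, 3.78, 11.7 and 10.4 CPM with the inhibitor and 2.35, 11.6, 7.35 and 12.5 with both, against 0.441 to 1.24 with nocodazole (interaction 2.81 ± 0.69, edgeR adjusted p = 0.010). Both inhibitor groups were spread widely. Axon guidance genes gave 13 higher and 3 lower interactions among 46 tested, with a median of 0.36. The 3 lower were not above the 9.2% of all tested genes. Of the 24 members that fell with nocodazole alone 13 were lost, not far from the 48% of all responders. Flrt2, an adhesion molecule and repulsive guidance ligand, was 17.5 to 18.9 CPM in DMSO, 2.87 to 3.75 with nocodazole, 23.1 to 27.9 with the inhibitor and 21.1 to 28.7 with both (interaction 2.35 ± 0.15, edgeR adjusted p = 1.8e-07). Malat1, an abundant nuclear RNA, had a lost rise (interaction -0.71 ± 0.16, edgeR adjusted p = 0.0054).

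Kept responses were few and mostly small. Lpin1, a phosphatidate phosphatase and lipid gene regulator, had the largest change without the inhibitor among the 8. It stood at 41.6, 43.7, 39.1 and 39.6 CPM in DMSO, 116, 101, 77.2 and 73.2 with nocodazole, 42.8, 37.3, 37.0 and 43.5 with the inhibitor, and 66.8, 77.7, 68.0 and 84.8 with both. The groups with and without nocodazole did not overlap at either inhibitor state. The changes were 1.17 ± 0.12 and 0.89 ± 0.12 (edgeR adjusted p = 2.7e-06 and 0.0072) and the interaction was -0.28 ± 0.17 (edgeR adjusted p = 0.28).

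Erg28, a scaffold of sterol synthesis enzymes, was 15.9 to 19.7, 21.5 to 35.2, 21.9 to 24.3 and 40.7 to 48.6 CPM in the same order, with changes of 0.67 ± 0.13 and 0.96 ± 0.12. Per3, a circadian clock gene, was 3.36 to 4.17, 4.98 to 7.06, 7.33 to 8.64 and 13.5 to 16.9 CPM. In the absence of nocodazole it was higher by 1.09 ± 0.12 with the inhibitor, and its nocodazole change was 0.68 ± 0.12 without and 0.87 ± 0.12 with the inhibitor. No group of Per3 overlapped with another. Kdm4a, a histone demethylase, and Siah2, a ubiquitin ligase, rose by 0.56 and 0.60 without and by 0.38 and 0.54 with the inhibitor. Capn10 and Sgtb rose by 0.14 and 0.29, then 0.31 and 0.32, and Rusc1 fell by 0.15 and by 0.33. All 8 were kept without replicate 1 too. Klf10, a zinc-finger repressor, joined them only then, with changes of 0.93 and 0.95 in that fit.

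With all 16 libraries the 4 reduced responses were Ifrd1, Ciart, Myo16 and Xbp1. Ifrd1, a transcriptional co-regulator, was 19.2 to 26.1 CPM in DMSO, 72.4 to 96.6 with nocodazole, 24.6 to 35.3 with the inhibitor and 44.9 to 56.9 with both, with no overlap of the last group with any other. Its change of 1.87 ± 0.13 became 0.71 ± 0.13 (interaction -1.16 ± 0.18, edgeR adjusted p = 0.00046). Myo16, an unconventional myosin of neurons, went from 1.11 ± 0.11 to 0.58 ± 0.10 (interaction -0.53 ± 0.15, edgeR adjusted p = 0.018). Ciart, a repressor of the circadian clock, was at 3.17, 3.19, 3.52 and 3.38 CPM in DMSO, 12, 11.7, 12.4 and 11 with nocodazole, 4.52, 6.63, 5.92 and 4.63 with the inhibitor and 11.8, 8.89, 9.09 and 7.38 with both. Replicate 1 with both drugs lay in the nocodazole range. Its changes were 1.82 ± 0.14 and 0.78 ± 0.14 (interaction -1.04 ± 0.20, edgeR adjusted p = 0.0021).

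The Ciart promoter is printed because it is a clock gene next to Per3 among the few genes still responding. The E-box CACGTG, which reads the same on both strands and is bound by CLOCK and BMAL1, was searched after these values were seen. It occurs in 7.24% of all 27025 RefSeq promoters, in 9.89% of those of tested genes, and 3 times in that of Ciart (GRCm38.p6, minus strand, chr3:95882229-95882478), at 116, 58 and 44 bases before the start, in capitals.
Ciart: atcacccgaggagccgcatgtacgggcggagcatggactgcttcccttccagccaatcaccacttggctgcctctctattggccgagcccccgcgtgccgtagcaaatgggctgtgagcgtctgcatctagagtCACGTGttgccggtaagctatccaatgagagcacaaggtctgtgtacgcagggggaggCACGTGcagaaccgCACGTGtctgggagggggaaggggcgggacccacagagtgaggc
The E-box letters were not in the promoter entry of Per3, but only the first listed start of each gene was searched.

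Sterol genes had higher interactions with little nocodazole change in the absence of the inhibitor. Of 25 tested genes of sterol synthesis and uptake, 15 had a higher interaction and none a lower, with a median interaction of 0.70. Without the inhibitor 1 rose and 3 fell, with a median of -0.13, and with it none was called, with a median of 0.49. Without replicate 1 these were 23 higher interactions and 10 called rises with the inhibitor. The list median was 0.14 in replicate 1 with both drugs, 0.57 to 0.70 in replicates 2 to 4, and -0.22 to 0.05 in the nocodazole libraries. Leaving out 1 of the other libraries gave 8 to 20 higher interactions, with 8 without DMSO replicate 1 or 2, inhibitor replicate 2 or 3, or inhibitor plus nocodazole replicate 3. The sample-number term left 1, and 15 when replicate 1 was left out too. Within the DMSO and nocodazole groups, replicates 1 and 2 were above replicates 3 and 4 in Insig1 and Stard4, and the source of that difference was not tested.

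**Figure D4:**
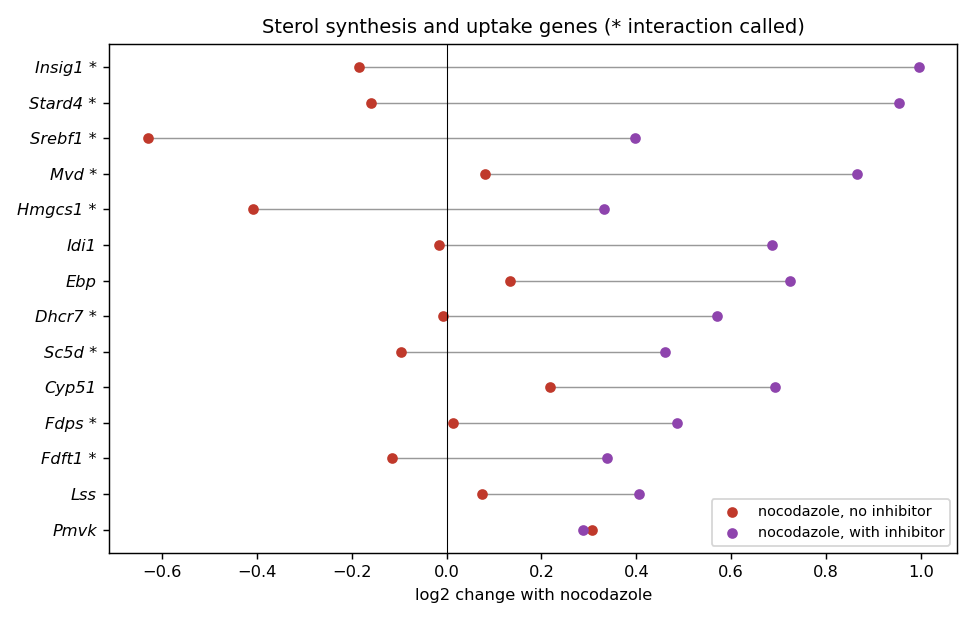
Log2 change with nocodazole of 14 of the 25 tested sterol genes, those named in the text, without (red) and with (purple) the inhibitor, ordered by the interaction, whose call is marked by a star. All but Pmvk lie higher with the inhibitor, and Insig1 has the largest distance of those drawn (1.18).

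Insig1, which holds the sterol sensor in the endoplasmic reticulum, stood at 134, 131, 72.6 and 98.7 CPM in DMSO, 130, 118, 67.5 and 68.3 with nocodazole, 131, 101, 101 and 155 with the inhibitor and 178, 284, 273 and 240 with both. All 4 libraries with both drugs were above every other library, and replicate 1 was the lowest of them. The change of -0.18 ± 0.24 without the inhibitor met 1.0 ± 0.24 with it (not called), an interaction of 1.18 ± 0.33 (edgeR adjusted p = 0.022). Stard4, a cholesterol carrier, was 53.6 to 110 CPM with nocodazole and 167, 248, 245 and 238 with both (interaction 1.11 ± 0.33, edgeR adjusted p = 0.025). That call was lost without DMSO replicate 1 or 2, inhibitor replicate 2 or 3, or inhibitor plus nocodazole replicate 3.

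Of the enzymes, Hmgcs1 had an interaction of 0.74 ± 0.21 (edgeR adjusted p = 0.020). Mvd, an early enzyme, had 0.79 ± 0.24 (edgeR adjusted p = 0.034). Without replicate 1 it was gained, with a rise of 1.01 under the inhibitor. Its interaction call was lost without DMSO replicate 1, 2 or 4, nocodazole replicate 3 or 4, inhibitor replicate 2 or 3, or inhibitor plus nocodazole replicate 2, 3 or 4. Srebf1, a transcription factor of lipid synthesis, was 18.1 to 25.9 CPM with nocodazole and 37.3 to 42.2 with both (interaction 1.03 ± 0.16, edgeR adjusted p = 0.00041). Pmvk, phosphomevalonate kinase, was the exception, with changes of 0.31 and 0.29 and an interaction of -0.02 ± 0.13.

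A pair of lipid enzymes outside the sterol list is named here after the values were seen. Fasn, the fatty acid synthase, was at 1813, 2884, 2788 and 2623 CPM with both drugs and 1420 to 2114 in the 12 other libraries. Its interaction was 0.46 ± 0.19 (edgeR adjusted p = 0.10), or 0.59 without replicate 1 (edgeR adjusted p = 0.0086). Lpcat3, a phospholipid-remodelling enzyme, had an interaction of 0.90 ± 0.21 (edgeR adjusted p = 0.0078) and 41.4, 56.2, 56.4 and 56.2 CPM with both drugs.

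**Figure D5:**
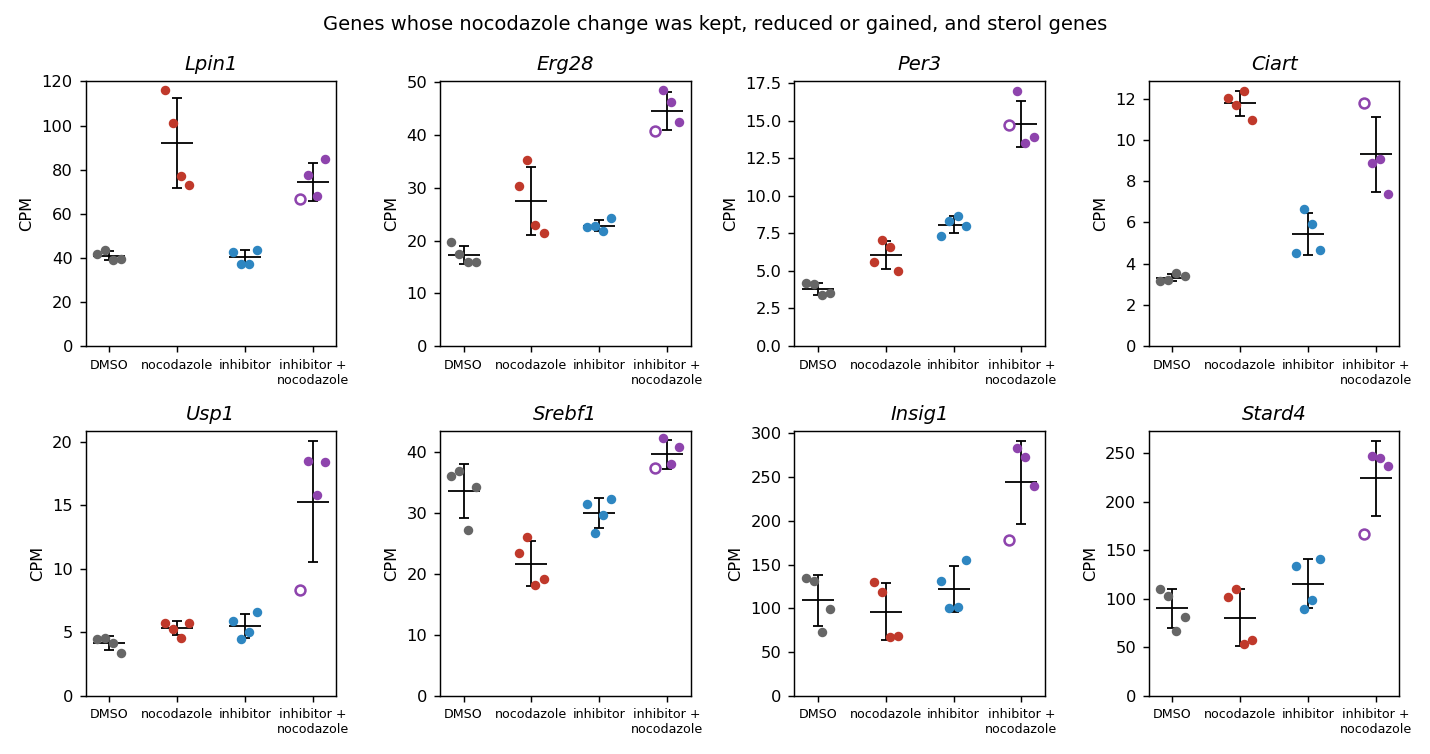
CPM per library by group for kept (Lpin1, Erg28, Per3), reduced (Ciart), gained (Usp1) and sterol genes (Srebf1, Insig1, Stard4); points are the 4 replicates, bars the mean and SD, and the open point is inhibitor plus nocodazole replicate 1. In Usp1, Srebf1, Insig1 and Stard4 the open point lies below its 3 fellows.

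Gained responses in all 16 libraries were Usp1, Nfe2l1 and Borcs6. Without inhibitor plus nocodazole replicate 1, 2 of them were still gained. The remaining 1 was strengthened there, that is called without the inhibitor too, with an interaction of the same sign. Leaving out 1 of the other libraries gave 0 to 4 gained rises, and 1 in most of these fits. Usp1, a deubiquitinase of DNA repair, was at 4.48, 4.57, 4.12 and 3.38 CPM in DMSO, 5.76, 5.26, 4.56 and 5.69 with nocodazole, 5.92, 4.45, 5.04 and 6.58 with the inhibitor and 8.36, 18.5, 15.8 and 18.4 with both. The group with both drugs was above all others, and replicate 1 was its lowest. The change was 1.47 ± 0.20 with the inhibitor (edgeR adjusted p = 0.0072) and 0.36 ± 0.21 without it, an interaction of 1.11 ± 0.29 (edgeR adjusted p = 0.014). Nfe2l1, a transcription factor of proteasome genes, rose by 0.33 ± 0.06 with the inhibitor and 0.06 ± 0.06 without (interaction 0.27 ± 0.08, edgeR adjusted p = 0.024, not called without inhibitor plus nocodazole replicate 4). Borcs6, a subunit of the lysosome-positioning BORC complex, was 34.3, 40.7, 43.9 and 49.8 CPM with both drugs and 24 to 32.3 in the 12 others (interaction 0.69 ± 0.14, edgeR adjusted p = 0.0040). Esyt2, a lipid-transfer tether, rose by 0.48 ± 0.08 with the inhibitor but its interaction of 0.28 ± 0.12 was not called (edgeR adjusted p = 0.11).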

How the data were processed

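RNA was sequenced from 16 samples (4 groups of 4), as total RNA depleted of ribosomal RNA, per the labels. The authors deposited raw counts per gene for all 16 samples, 55356 identifiers, of which 52080 (94.1%) carry a symbol. STAR, Salmon and GRCm39 are named per the submitters' processing notes. Their versions, which of them made the counts, and the strand setting are not given in the sources used here, so reads of antisense and overlapping genes cannot be told apart.

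Counts were tested with edgeR 4.0.16 in R 4.3.3 (filterByExpr, TMM, 1 mean per group, quasi-likelihood test, Benjamini-Hochberg adjusted p below 0.05). This left 19156 genes, 72 without a symbol. The scripts were tested on simulated data. CPM values use TMM-scaled library sizes, ± is the SE of a log2 change, and totals of 30987962 to 43321421 counts limit precision mainly for genes near 0.

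Gene lists and the genes named were chosen with earlier results of these data known. The rule took, among genes with at least 10 CPM in 1 group and the same class without inhibitor plus nocodazole replicate 1, the 12 lost rises and 12 lost falls with the largest interactions, up to 8 of each other class (4 of those reversed), a set list of pathway genes, and up to 4 members per list. The 8 kept genes, Klf10, Usp1, Esyt2, Fasn, Lpcat3, Pmvk and the other single genes outside that rule were chosen after their values were seen. Alternatives were each library left out, a replicate block, DESeq2 1.42.0 and its size factors, limma 3.58.1 voom weights, other filters, an adjusted p below 0.01, and, added after seeing the data, sample-number fits. A few list members are counted but not reported here by name.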

Additional observations from a re-analysis of the deposited data

Results flagged for a closer look

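The nocodazole change differed by the presence of the inhibitor, in edgeR's test of the difference itself, in 70 of the named genes. The log2 interaction was lower in Atf3 (-4.41), Jun (-4.05), Fosl2 (-2.67), Mafk (-1.45), Egr1 (-6.13), Fos (-3.24), Sox11 (-1.55), Tnik (-0.40), Map4k4 (-0.29), Dusp1 (-3.17), Dusp8 (-0.48), Dusp16 (-1.92), Ddit3 (-2.15), Sesn2 (-1.44), Trib3 (-1.28), Stc2 (-2.19), Ppp1r15a (-2.21), Chac1 (-0.90), Bbc3 (-1.67), Mdm2 (-1.27), Gadd45a (-2.04), Tnfrsf12a (-3.45), Stmn4 (-1.57), Hspa5 (-1.0), Dnajb9 (-1.59), Eif2ak3 (-1.14), Xbp1 (-0.31), Hmox1 (-2.01), Snx33 (-4.75), Arid5a (-3.21), Lhfpl2 (-3.21), Aloxe3 (-3.24), Bcl6 (-2.90), Dok7 (-2.85), Fam167a (-2.80), Ifrd1 (-1.16), Ciart (-1.04), Myo16 (-0.53) and Malat1 (-0.71). It was higher in Myc (0.96), Map3k12 (0.31), Dusp7 (1.00), Tubb3 (1.02), Tuba1a (0.90), Tuba1b (1.06), Tubb5 (0.79), Kcna2 (1.04), Prdm12 (0.91), Flrt2 (2.35), Oprk1 (2.81), Adamts15 (3.97), Grhl3 (3.04), Rhpn2 (2.70), A4galt (2.67), Prag1 (2.64), Fzd7 (2.53), Mob3b (2.53), Kcnj3 (2.44), Scml4 (2.42), Htr1b (2.40), Lrfn2 (2.36), Usp1 (1.11), Nfe2l1 (0.27), Borcs6 (0.69), Insig1 (1.18), Hmgcs1 (0.74), Srebf1 (1.03), Stard4 (1.11), Mvd (0.79) and Lpcat3 (0.90).

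Single libraries lay far from the other 3 of their group, by the gap to the nearest relative to the group's range, a rule that chance meets in about 1 of 20 groups; 372 groups were examined. Inhibitor plus nocodazole replicate 1 did so on the first principal component, at 10.4. In CPM it did so for Jun (0.841), Dusp4 (7.93), Ddit3 (96.3), Stc2 (57.8), Ppp1r15a (116), Gadd45a (61.0), Tubb3 (945), Tubb5 (1695), Tubb2b (1110), Kcnj3 (3.96), Scml4 (4.08), Lrfn2 (8.72), Snx33 (1.03), Arid5a (9.51), Stard4 (167), Mvd (160), Pmvk (55.2) and Lpcat3 (41.4). Nocodazole replicate 3 stood apart for Jund (368), Dusp8 (224), Chac1 (170.0), Kcna2 (34.8), Oprk1 (1.24) and Rhpn2 (1.63) CPM. Inhibitor replicate 4 stood apart for Jun (21.1), Jund (119), Dusp8 (94.5), Stmn4 (50.2) and Dok7 (1.19) CPM. Inhibitor replicate 1 stood apart for Map3k12 (127) CPM. Inhibitor plus nocodazole replicate 2 stood apart for Dusp7 (29.4) CPM. Inhibitor replicate 2 stood apart for Flrt2 (23.1) CPM. DMSO replicate 4 stood apart for Adamts15 (29.7) CPM. Nocodazole replicate 2 stood apart for Aloxe3 (10.1) CPM. Inhibitor replicate 3 stood apart for Bcl6 (2.91) CPM. Inhibitor plus nocodazole replicate 3 stood apart for Fam167a (1.33) CPM. No cause was tested.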

How the results depend on the processing

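The 70 called interactions among the named genes kept their sign in each alternative run, but small interactions with no call turned sign in some (Scn10a, Siah2, Sgtb, Klf10 and Pmvk), and counts of calls moved. Leaving out 1 library gave 1266 to 2478 lower and 1328 to 2740 higher interactions, 1240 to 2308 lost rises, 1300 to 2523 lost falls, 3 to 16 kept rises, 0 to 43 gained rises, 3 to 88 calls with the inhibitor and 6160 to 7770 without it. The cause was not tested.

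At an adjusted p below 0.01 there were 753 lower and 790 higher interactions, 741 lost rises, 774 lost falls, 4 kept rises, 0 gained rises, 5 calls with the inhibitor and 4710 without it, a threshold effect. DESeq2 gave 125 calls with the inhibitor, 31 kept rises and 36 gained rises. limma voom weights gave 2694 lower and 3018 higher interactions, 2806 lost falls, 91 calls with the inhibitor, 20 kept and 44 gained rises. With no low-count filter there were 28 calls with the inhibitor and 10 gained rises, and with each nocodazole contrast on its own 8 libraries 6 calls and 4 kept rises.

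With the sample-number term there were 267 lower and 285 higher interactions, 267 lost rises, 285 lost falls, 3 kept, 0 gained, 3 calls with the inhibitor and 3832 without it. With that term and without inhibitor plus nocodazole replicate 1 there were 651, 717, 649 lost rises, 680 lost falls, 13 gained and 33 calls with the inhibitor. The 11 libraries numbered below 15 gave 100 lower and 94 higher interactions, 100 lost rises, 94 lost falls, 0 kept, 0 gained, 0 calls with the inhibitor and 1767 without it. That fit has 4 nocodazole, 4 inhibitor, 2 inhibitor plus nocodazole and 1 DMSO library, and the lone DMSO library is assumed to vary like the other groups.

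Replicate numbers did not pair the samples (correlations of same-numbered deviations -0.399 to 0.232, 8 of 24 over 0.1, 5 of 16 samples closest to their own number). A replicate block gave 1747 lower and 1710 higher interactions, 5 calls with the inhibitor, 4 kept rises and 1 gained rise.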

Other observations

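Without inhibitor plus nocodazole replicate 1, 13 responses were reversed, that is called in opposite directions with and without the inhibitor, and 12 of these fell without it. They were Dtna, Pcyt2, Dnpep, Sema4a, Aldh4a1, Agfg2, Kctd7, Stat2, Pgp, Gpatch11, Lmtk3, Hes6 and Gm12744. The 43 rises gained in that fit included the sterol and fatty acid enzymes Acat2, Acly, Acss2, Cyp51, Dhcr7, Ebp, Elovl6, Fads2, Fdft1, Fdps, Idi1, Lss and Sc5d. None of these genes was reversed or gained with all 16 libraries, and the names were chosen after the values were seen.

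The 13 mitochondrially encoded genes had a median interaction of -0.45 and no call with all 16 libraries, and 6 lower interactions without replicate 1. Their list median by library ran from -0.12 to 0.52 with nocodazole and from -0.55 to 0.22 with both drugs.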
